A study of Mus musculus with 24 samples.

Results

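The genes described here make, bind or break down retinoic acid, and there are 9 of them among the 23333 genes listed in either of the deposited tables. They were chosen by gene name: Rdh10, Dhrs3, Aldh1a1, Aldh1a2, Aldh1a3, Crabp1, Crabp2, Cyp26a1 and Cyp26b1. Each of the 9 was present in both tables, which held 23177 genes (Zbtb16 table) and 21688 genes (Sox3 table), and each passed the filter on low values in both. The tables come from RNA sequencing of 24 libraries of germ cells of 7-day-old (postnatal) mice, which were sorted with magnetic beads into a THY1+ fraction of undifferentiated spermatogonia (uSPG) and a KIT+ fraction of differentiating spermatogonia (dSPG). In the Zbtb16 set, mice homozygous for the luxoid allele (Zbtb16 lu/lu, called null) were compared with wild-type (WT) mice, to learn which genes depend on the transcription factor ZBTB16. In the Sox3 set, conditional knockouts (cKO), made from a floxed Sox3 allele and a Ddx4 (Vasa) Cre that is active in germ cells, were compared with WT mice. The mice were of C57BL/6J background and the WT mice were littermates. Every cell of a luxoid null mouse carries the allele, including the somatic cells of the testis, whereas the Sox3 deletion is made in the germline. Each of the 8 groups (2 fractions and 2 genotypes in each set) held 3 libraries, and the testes of 3 mice were pooled for an isolation. The study describes the libraries of a group as biological replicates derived independently of each other.

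Retinoic acid is made from vitamin A (retinol) by successive oxidations and acts by binding nuclear receptors of the RAR and RXR families on DNA. In the testis it triggers the passage of undifferentiated spermatogonia into differentiation and, later, entry into meiosis. RDH10 oxidises retinol to retinaldehyde, and DHRS3 reduces retinaldehyde back to retinol. The ALDH1A enzymes oxidise retinaldehyde to retinoic acid, which is the irreversible step. CRABP1 and CRABP2 bind retinoic acid in the cytoplasm, CRABP2 being known for delivery to the receptors, and the CYP26 hydroxylases degrade it. Somatic cells as well as germ cells of the testis express genes of this pathway.

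The genes for the degrading enzymes, Cyp26a1 and Cyp26b1, differed from each other in level and in their changes. The regions around their start sites are shown as a description, and their part in these differences was not tested. Cyp26a1 is known as a gene that retinoic acid itself induces, through pairs of a short core motif that RAR and RXR bind. Promoter windows from RefSeq (GRCm38.p6), running from 250 bases before a start site to 50 bases after it, were present for 6 of the 9 genes (9 windows). They were searched on both strands for direct repeats of the cores AGTTCA and AGGTCA, or else GGTTCA and GGGTCA, alone or mixed, with 1, 2 or 5 bases between them. Of 32851 windows of that length over the genome, 73 held a repeat with 1 base between the cores (0.222%), 88 a repeat with 2 bases (0.268%) and 32 a repeat with 5 bases (0.0974%). The 9 windows held 1 such repeat, with 5 bases between the cores, in Cyp26a1 (chr19:37697558-37697857, plus strand). It lies at chr19:37697776-37697792, starts 32 bases before the start site and reads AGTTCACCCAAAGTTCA on the other strand. Only 8 windows of the 32851 (0.0244%) held this exact pair of cores, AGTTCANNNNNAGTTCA. The Cyp26b1 window (chr6:84593761-84594060, minus strand) held no repeat of these spacings, which says only that these letters are not in this window. Capitals mark the repeat as it stands on the strand of the gene.
Cyp26a1: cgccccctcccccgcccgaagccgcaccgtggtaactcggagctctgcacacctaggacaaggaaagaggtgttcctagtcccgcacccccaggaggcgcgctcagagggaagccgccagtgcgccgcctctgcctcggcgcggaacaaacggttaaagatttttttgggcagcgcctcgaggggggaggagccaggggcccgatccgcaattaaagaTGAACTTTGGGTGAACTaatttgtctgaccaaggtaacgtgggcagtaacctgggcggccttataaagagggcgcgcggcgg
Cyp26b1: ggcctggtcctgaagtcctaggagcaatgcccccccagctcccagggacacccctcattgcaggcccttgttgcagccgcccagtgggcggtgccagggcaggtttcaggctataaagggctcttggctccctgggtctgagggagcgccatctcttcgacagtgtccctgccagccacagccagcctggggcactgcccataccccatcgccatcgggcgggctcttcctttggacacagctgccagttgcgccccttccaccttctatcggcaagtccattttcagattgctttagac

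The libraries of the Zbtb16 table held 25.81 to 35.01 M reads by estimate. Those of the Sox3 table held 28.13 to 31.79 M for replicate 1 but 10.98 to 14.91 M for replicate 2 and 11.15 to 14.04 M for replicate 3. The values are FPKM, which are read counts scaled to gene length and to library depth, so that levels can be compared between genes. The mutated genes followed the genotype labels, with Zbtb16 at a mean of 52.1 FPKM in WT and 17.1 FPKM in null THY1+ uSPG, and Sox3 at 6.28 to 24.4 FPKM in WT libraries and 0 to 0.0820 FPKM in cKO libraries. The sorting markers followed the fraction labels in the Zbtb16 set and in the cKO libraries. The WT libraries of the Sox3 table went against theirs: Thy1 was at 0.213 to 0.254 FPKM in those labelled THY1+ and at 3.59 to 4.06 FPKM in those labelled KIT+, and Kit at 45.6 to 80.1 and 13 to 18.8 FPKM. They were kept as labelled and are called WT labelled THY1+ and WT labelled KIT+ below. The cKO effect averaged over both fractions weighs all 6 WT libraries alike and is the same whichever label is right. The direction of a comparison within a fraction of the Sox3 table depends on those labels.

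Levels of these genes ranged from 0.406 FPKM (Crabp2) to 1188 FPKM (Aldh1a1). Aldh1a1 (ENSMUSG00000053279, chromosome 19, 20492715 to 20643465, plus strand of GRCm38) was the highest of the 9 in every KIT+ library of the Zbtb16 set, at 425 to 779 FPKM. Crabp1 (ENSMUSG00000032291, chromosome 9, 54764748 to 54773110, plus strand) followed there at 97.5 to 214 FPKM. Crabp2 (ENSMUSG00000004885, chromosome 3, 87948666 to 87953376, plus strand) stood at 0.406 to 2.63 FPKM over all 24 libraries. That range rests on an estimated 7 to 84 reads a library, so counting error alone is wide for it, while Cyp26a1 (ENSMUSG00000024987, chromosome 19, 37697798 to 37701536, plus strand) rests on 37 to 216 reads and the other genes on at least 89.

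**Figure D1:**
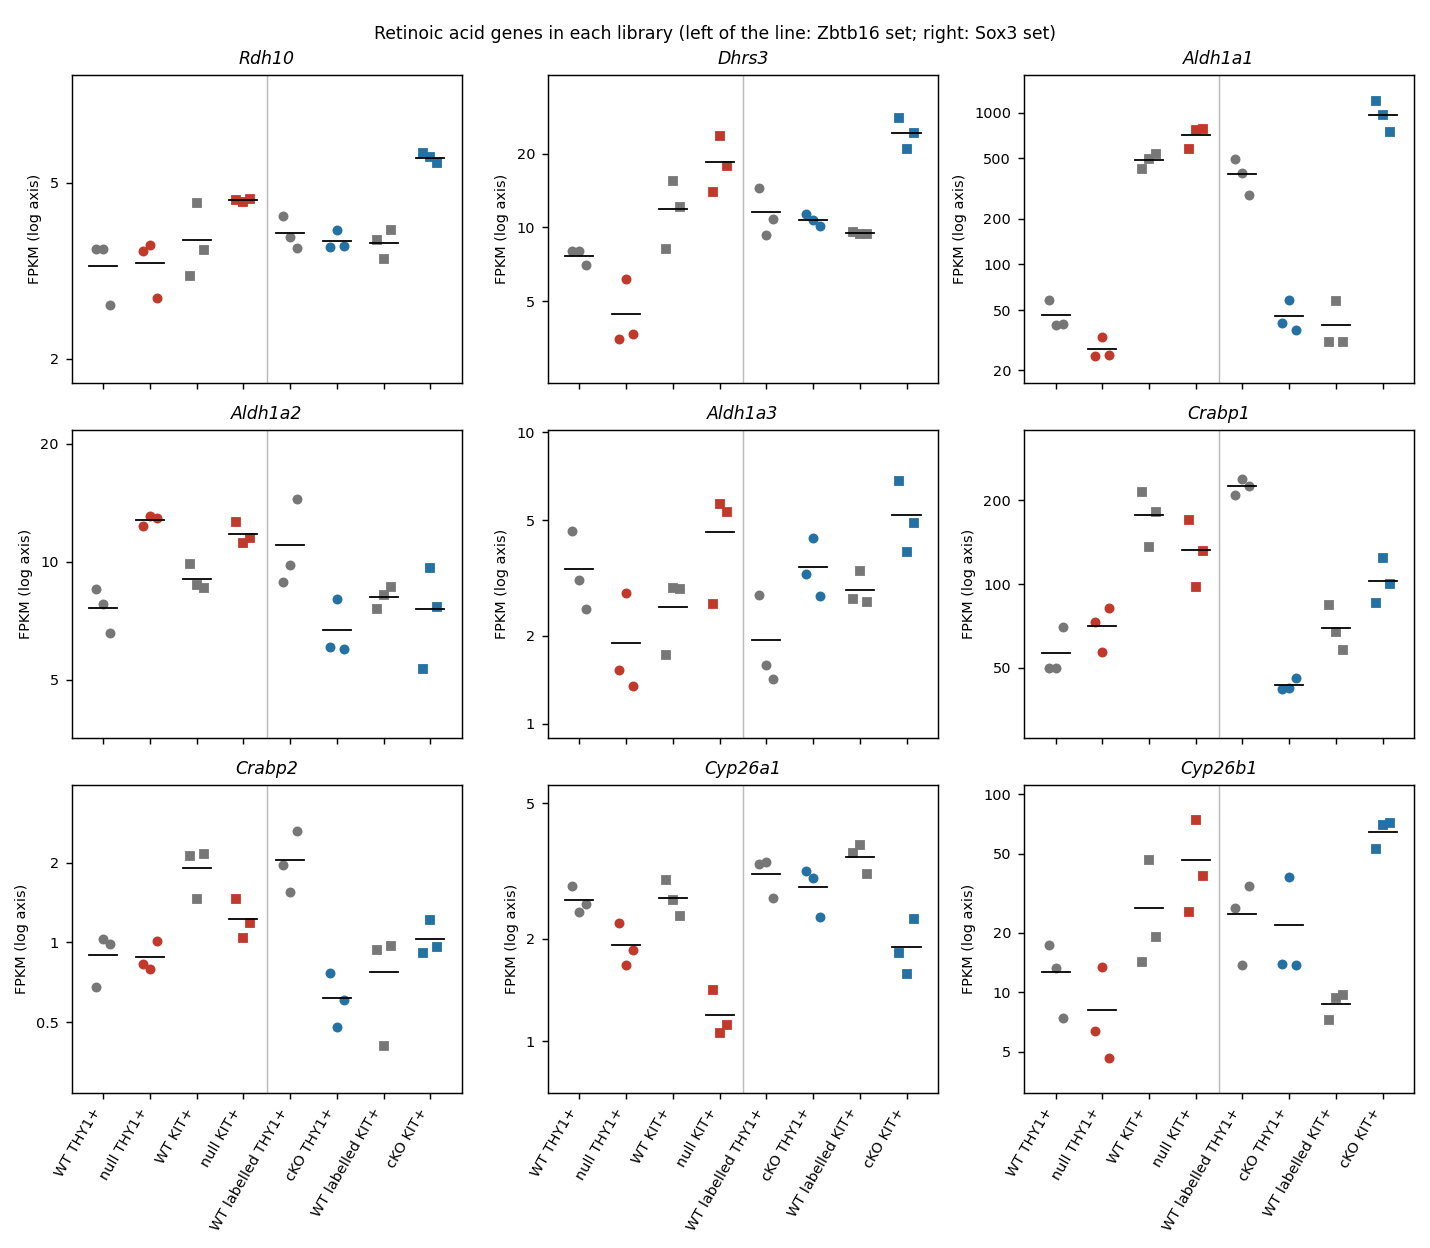
FPKM of each gene in every library, on a log axis, with the groups of the Zbtb16 set and of the Sox3 set side by side (circles, libraries labelled THY1+; squares, libraries labelled KIT+; grey, WT; red, Zbtb16 null; blue, Sox3 cKO; horizontal bar, group mean; 3 libraries a group). Aldh1a1 lies between 24.9 and 57.8 FPKM in the THY1+ libraries of the Zbtb16 set and between 425 and 779 FPKM in its KIT+ libraries, and the WT libraries of the Sox3 set show the opposite order by label.

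The comparison of the fractions describes what separates the KIT+ libraries from the THY1+ libraries. Markers of somatic cells differed between them as well, as given below. A gene was called changed at an adjusted p of at most 0.05 (limma on log2(FPKM + 0.1), Benjamini-Hochberg over all genes of the table) and a change of at least 1.5-fold. In WT mice of the Zbtb16 set 3 of the 9 genes rose in KIT+ dSPG and none fell, where 21.2% of the 22374 genes tested were called in either direction. The fractions did not overlap for 5 of the 9, against 42.7% of all genes. Aldh1a1 rose 10.6-fold (log2 fold change 3.41 ± 0.18, with the SE from limma and n = 3 libraries a group here and below, adjusted p 2.12e-07), Crabp1 rose 3.11-fold (1.64 ± 0.23, adjusted p 0.000356) and Crabp2 rose 2.01-fold (1.01 ± 0.21, adjusted p 0.00458). Dhrs3 stood at 0.58 ± 0.27 (adjusted p 0.128) and passed the test only without WT KIT+ replicate 1 (0.83).

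In null mice 6 of the 9 genes were called between the fractions (29.2% of all genes), and 7 did not overlap (48.6%). Aldh1a1 was 25.5-fold higher in null KIT+ dSPG than in null THY1+ uSPG (log2 4.67 ± 0.18, adjusted p 5.39e-08), Cyp26b1 5.64-fold (2.50 ± 0.53, adjusted p 0.00333) and Dhrs3 4.12-fold (2.04 ± 0.27, adjusted p 0.000137). Aldh1a3 rose by 1.21 ± 0.37 (adjusted p 0.0216) and Crabp1 by 0.89 ± 0.23 (adjusted p 0.0102). Cyp26a1 was the only one of the 9 to fall, with a log2 fold change of -0.64 ± 0.17 (adjusted p 0.00939). The calls of Aldh1a3 and Cyp26a1 each rested on single libraries. Aldh1a3 lost its call without null THY1+ replicate 1 or 3 or null KIT+ replicate 2 or 3 (1.01 to 1.1), and Cyp26a1 dropped under the 1.5-fold threshold without null THY1+ replicate 1 or null KIT+ replicate 2 (-0.57 to -0.53) and with a pseudocount of 1 in place of 0.1 (-0.41).

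In the cKO libraries of the Sox3 set, whose markers follow their labels, 5 of the 9 genes were higher in KIT+ dSPG than in THY1+ uSPG and none was lower by the call (22.7% of 21212 genes tested). Without overlap were 7 of the 9 (44.5%). The rise was 21.2-fold for Aldh1a1 (log2 4.41 ± 0.29, adjusted p 6.69e-07), 3.29-fold for Cyp26b1 (1.72 ± 0.39, adjusted p 0.00679), 2.34-fold for Crabp1 (1.23 ± 0.15), 2.24-fold for Dhrs3 (1.16 ± 0.15) and 1.53-fold for Rdh10 (0.61 ± 0.12, adjusted p 0.00264, under 1.5-fold at 0.51 with a pseudocount of 1). Cyp26a1 had a log2 fold change of -0.56 ± 0.19 (adjusted p 0.0406), under 1.5-fold. Among the WT libraries the change from labelled THY1+ to labelled KIT+ ran the other way for the 4 genes called (19.7% of all genes), and 5 did not overlap (40.6%). These were Aldh1a1 (-3.34 ± 0.29), Crabp1 (-1.70 ± 0.15), Crabp2 (-1.35 ± 0.31) and Cyp26b1 (-1.42 ± 0.39). Cyp26b1 was no longer called without WT labelled THY1+ replicate 1 or 3 or WT labelled KIT+ replicate 1 (-1.32 to -1.13).

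Markers of another cell type moved with the fraction. Leydig cells, the steroid-producing cells between the tubules, have markers of their own. In the Zbtb16 set all 8 of these marker genes were called higher in KIT+ than in THY1+ libraries of WT (median log2 change 3.88) and of null mice (5.28). In cKO mice 7 of 8 were called higher (4.88). Their summed level was 109 to 146 FPKM in WT THY1+, 1319 to 2444 FPKM in WT KIT+, 66.2 to 99.5 FPKM in null THY1+ and 2220 to 3419 FPKM in null KIT+ libraries. In the Sox3 set it was 1367 to 2184 FPKM in WT labelled THY1+, 87.5 to 137 FPKM in WT labelled KIT+, 105 to 135 FPKM in cKO THY1+ and 2720 to 5324 FPKM in cKO KIT+ libraries. No Leydig marker had a group mean below 0.1 FPKM. Aldh1a1 and this sum were both low in the same 4 groups and both high in the other 4, and their part in the level of Aldh1a1 was not tested. The summed level of 11 macrophage markers ran the other way, at 412 to 1370 FPKM in the 4 groups low in Leydig markers and 6.18 to 15.4 FPKM in the others, with Cd163 and Fcgr1 below 0.1 FPKM there. The 12 markers of undifferentiated spermatogonia were all called lower in KIT+ than in THY1+ libraries of WT and null mice of the Zbtb16 set and of cKO mice (median log2 change -2.19, -1.92 and -1.92). The counts that follow are of the same comparisons, so WT there means the Zbtb16 set. Sertoli cell markers were called higher in KIT+ libraries for 4 of 10 genes in WT, 8 of 10 in null and 4 of 9 in cKO mice, with 1 called lower in each. Markers of T cells were called lower for 7, 7 and 8 of 9. Genes listed as markers of differentiating spermatogonia were called higher for 3, 3 and 1 of 7, with 1 called lower in each. This list includes Ccnd2, whose protein the study reports in early uSPG and not in dSPG. Peritubular and stromal markers were called lower for 7, 1 and 2 of 12, and 1 was called higher in null mice. Endothelial markers were called higher for 0, 4 and 6 of 8, and 1 was called lower in WT and 1 in null mice. In sorted bulk samples fewer cells of a type and less RNA per cell cannot be told apart.

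**Figure D2:**
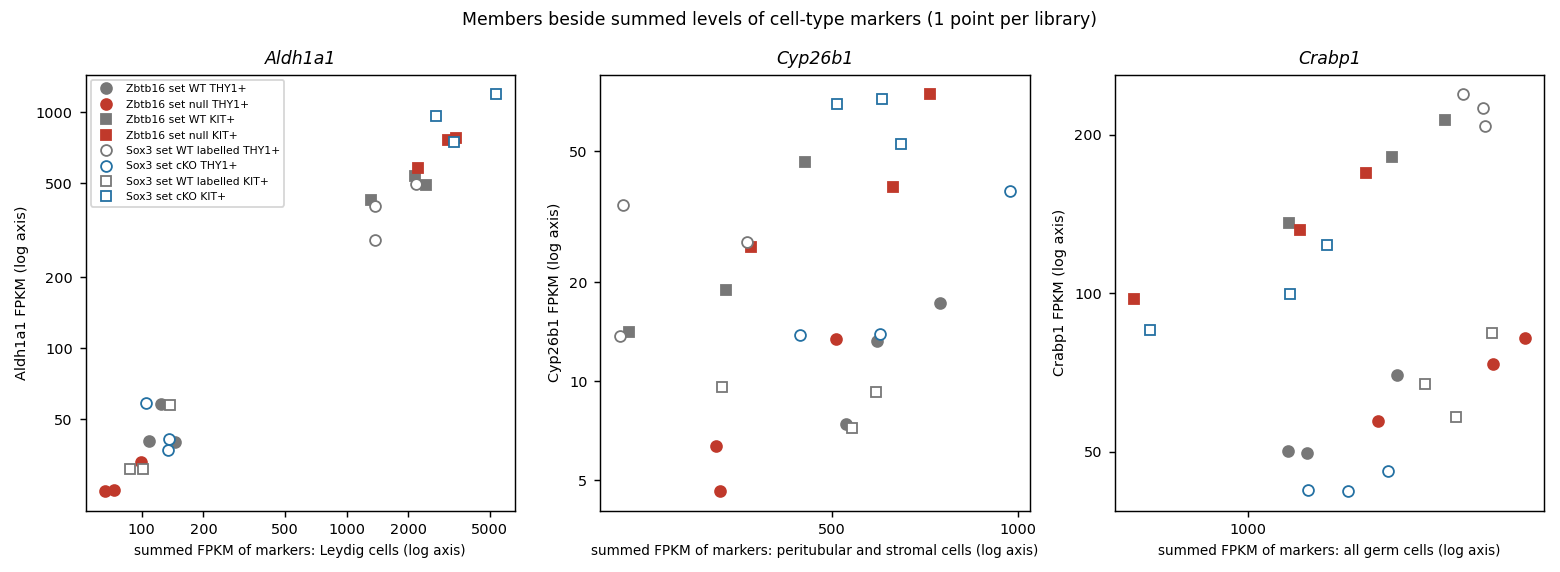
Levels of Aldh1a1, Cyp26b1 and Crabp1 in each of the 24 libraries against the summed level of Leydig cell markers (left), of peritubular and stromal markers (middle) and of markers of all germ cells (right), all in FPKM on log axes (filled symbols, Zbtb16 set; open symbols, Sox3 set; circles, labelled THY1+; squares, labelled KIT+; grey, WT; red, null; blue, cKO). In the left panel the Leydig cell marker sum forms a low cluster, 66.2 to 146 FPKM, and a high cluster, 1319 to 5324 FPKM, so no correlation is given, and the WT libraries labelled THY1+ of the Sox3 set lie in the high cluster.

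The genes of the step between retinol and retinaldehyde were examined first for dependence on ZBTB16. Rdh10 (ENSMUSG00000025921, chromosome 1, 16105774 to 16133734, plus strand), the retinol oxidase, stood at 3.54, 3.54 and 2.65 FPKM in WT THY1+ uSPG and at 3.5, 3.61 and 2.75 FPKM in null THY1+ uSPG. In KIT+ dSPG it stood at 3.09, 4.51 and 3.53 FPKM in WT and at 4.56, 4.53 and 4.6 FPKM in null mice. The groups overlapped in THY1+ uSPG, and in KIT+ dSPG the null libraries lay just above the highest WT library. Neither difference passed the test, with log2 fold changes of 0.02 (95% interval -0.36 to 0.40) and 0.31 (-0.07 to 0.69). Dhrs3 (ENSMUSG00000066026, chromosome 4, 144892827 to 144928209, plus strand), which reverses that step, stood at 8.0, 7.98 and 7.02 FPKM in WT THY1+ uSPG and at 3.49, 6.17 and 3.66 FPKM in null THY1+ uSPG. In KIT+ dSPG it stood at 8.15, 15.4 and 12.2 FPKM in WT and at 13.9, 23.5 and 17.9 FPKM in null mice. Null libraries were thus below all WT libraries in one fraction, and in the other they lay mostly above with an overlap. The log2 fold changes were -0.82 ± 0.27 (adjusted p 0.10) and 0.64 ± 0.27 (adjusted p 0.261), and neither was a call. The first became one without null THY1+ replicate 2 (-1.08), and with the replicate number as a block in the fit (adjusted p 0.0120).

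Of the 9 genes, 2 were called in null against WT THY1+ uSPG, where 3.98% of 22374 genes were called, and both were genes for enzymes that form retinoic acid. Aldh1a1 stood at 57.8, 40.0 and 40.5 FPKM in WT and at 24.9, 33.0 and 25.1 FPKM in null libraries. Aldh1a2 (ENSMUSG00000013584, chromosome 9, 71215789 to 71296243, plus strand) stood at 8.54, 7.81 and 6.58 FPKM in WT and at 12.3, 13.1 and 12.9 FPKM in null libraries. Every null library was below the WT libraries for the first gene and above them for the second. Aldh1a1 fell by 0.73 ± 0.18 on the log2 scale (1.65-fold, adjusted p 0.0406) and Aldh1a2 rose by 0.74 ± 0.11 (1.67-fold, adjusted p 0.00350). The call of Aldh1a2 held whichever of the 12 libraries was left out (0.64 to 0.83). That of Aldh1a1 was lost in 7 of the 12 cases, without any 1 of the 3 WT THY1+ libraries, WT KIT+ replicate 2 or 3, or null THY1+ replicate 1 or 3 (-0.82 to -0.55), as well as with only the groups compared in the fit (adjusted p 0.0724) and without limma's trend and robust settings (adjusted p 0.0515).

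Because these enzymes catalyse one reaction, their shares of the summed Aldh1a FPKM were also compared. Aldh1a1 made up 80.6% ± 1.77 (SD, n = 3) in WT THY1+ uSPG and 65.2% ± 1.99 in null THY1+ uSPG. Aldh1a2 made up 13.5% ± 1.67 and 30.5% ± 3.21, and the ranges of both shares lay apart. In KIT+ dSPG the share of Aldh1a1 was 97.6% ± 0.284 in WT and 97.7% ± 0.246 in null mice. Shares are descriptions of RNA, not of enzyme activity, and no test was made on them. Leydig markers were also lower in these null libraries, with 8 of 8 below zero on the log2 scale at a median of -0.73 and none called. So were 11 of 11 macrophage markers (median -0.76, 1 called), whose sum was 890.2 to 1024 FPKM in WT and 412 to 786 FPKM in null libraries, and 9 of 10 Sertoli markers (median -0.61, none called). The part of these markers in the Aldh1a differences was not tested.

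In KIT+ dSPG none of the 3 Aldh1a genes was called between null and WT mice. Aldh1a1 stood at 425, 493 and 538 FPKM in WT and at 578, 765 and 779 FPKM in null libraries (log2 0.54 ± 0.18, adjusted p 0.198). Aldh1a2 stood at 9.85, 8.75 and 8.57 FPKM in WT and at 12.7, 11.2 and 11.5 FPKM in null libraries (0.38 ± 0.11, adjusted p 0.169). For both genes every null library was above every WT library. Aldh1a3 (ENSMUSG00000015134, chromosome 7, 66390890 to 66427517, minus strand) stood at 1.72, 2.93 and 2.90 FPKM in WT and at 2.57, 5.70 and 5.35 FPKM in null KIT+ dSPG (0.78 ± 0.37, adjusted p 0.300). In THY1+ uSPG it stood at 4.58, 3.12 and 2.48 FPKM in WT and at 1.53, 2.81 and 1.34 FPKM in null libraries (-0.84 ± 0.37, adjusted p 0.196). Its groups overlapped in both fractions. The effect averaged over the fractions was 0.56 ± 0.08 for Aldh1a2 (adjusted p 0.00234), a 1.47-fold difference just under the threshold for a call. It passed 1.5-fold without WT THY1+ replicate 1 or WT KIT+ replicate 1 (0.59 to 0.60).

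**Figure D3:**
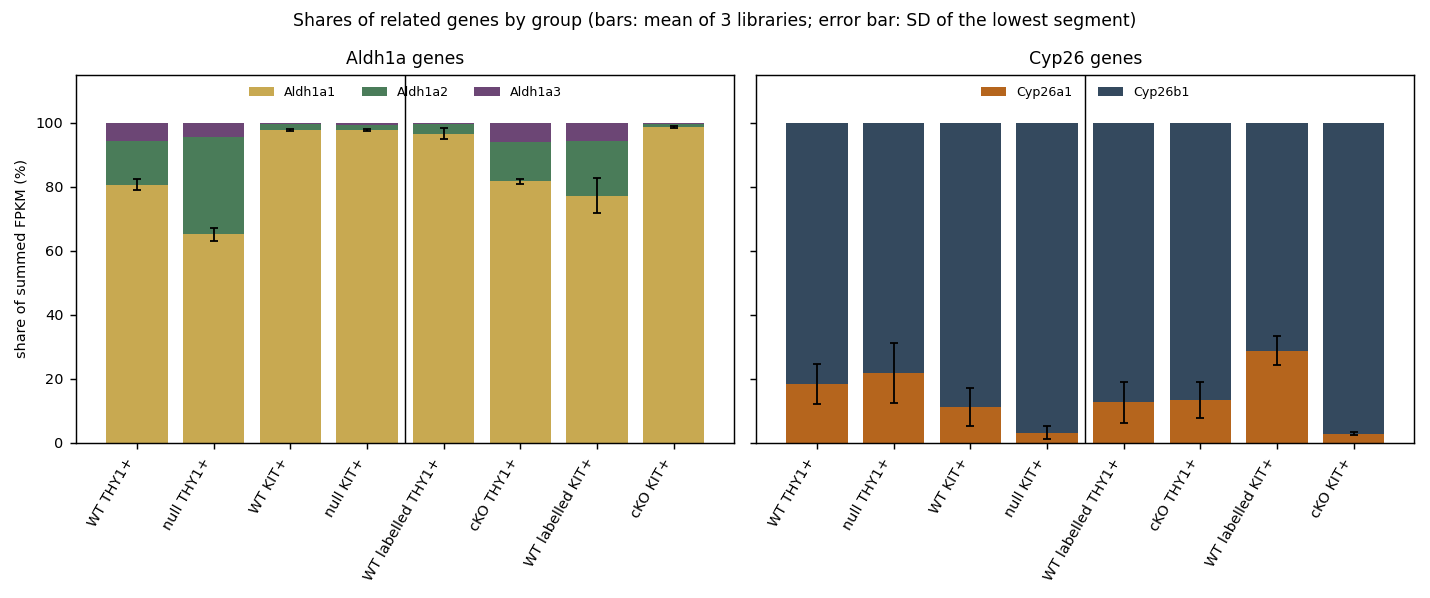
Share of each gene in the summed FPKM of its family, in percent, for the Aldh1a genes (left) and the Cyp26 genes (right), as stacked bars of the mean of 3 libraries a group (error bar, SD of the lowest segment; the vertical line parts the Zbtb16 set from the Sox3 set). Aldh1a1 makes up 80.6% in WT and 65.2% in null THY1+ uSPG, and Cyp26a1 makes up 3.14% in null KIT+ and 2.88% in cKO KIT+ libraries.

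The genes for the binding proteins did not pass the test between genotypes of the Zbtb16 set. Crabp1 stood at 49.8, 50.1 and 70.0 FPKM in WT THY1+ uSPG and at 73.2, 57.2 and 82.1 FPKM in null THY1+ uSPG. In KIT+ dSPG it stood at 214, 136 and 182 FPKM in WT and at 170, 97.5 and 132 FPKM in null mice. The groups overlapped in both fractions, with log2 fold changes of 0.33 (95% interval -0.18 to 0.83) and -0.43 (-0.93 to 0.08). Crabp2 stood at 0.678, 1.03 and 0.989 FPKM in WT and at 0.832, 0.797 and 1.02 FPKM in null THY1+ uSPG. In KIT+ dSPG it stood at 2.12, 1.46 and 2.15 FPKM in WT and at 1.46, 1.04 and 1.19 FPKM in null mice. There the null libraries lay below the lowest WT library, the nearest by a narrow margin (-0.59 ± 0.21, adjusted p 0.217). Crabp1 made up 98.4% to 99.1% of the summed Crabp FPKM in the group means of both sets.

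Cyp26a1 was the one gene of the 9 called in null against WT KIT+ dSPG, where 0.259% of 22374 genes were called. It stood at 2.97, 2.60 and 2.33 FPKM in WT and at 1.41, 1.06 and 1.11 FPKM in null KIT+ dSPG. In THY1+ uSPG it stood at 2.87, 2.40 and 2.54 FPKM in WT and at 2.22, 1.68 and 1.85 FPKM in null mice. In both fractions every null library was below every WT library. It fell by 1.08 ± 0.17 on the log2 scale in KIT+ dSPG (2.11-fold, adjusted p 0.0246), and the difference in THY1+ uSPG was -0.43 ± 0.17 (adjusted p 0.149). Averaged over the fractions it fell by 0.75 ± 0.12 (1.69-fold, adjusted p 0.00480), as the one call among the 9 where 2.3% of all genes were called. The averaged call held without any 1 of the 12 libraries (-0.81 to -0.71), but with a pseudocount of 1 the fall was under 1.5-fold (-0.52). The call in KIT+ dSPG was lost without any 1 of the WT KIT+ libraries or without null KIT+ replicate 2 or 3 (-1.16 to -0.99), and with only the groups compared in the fit (adjusted p 0.287). The window printed above with capitals belongs to this gene, and the data hold no measure of receptor binding there.

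Cyp26b1 (ENSMUSG00000063415, chromosome 6, 84571414 to 84593908, minus strand) varied widely between the libraries of a group. It stood at 17.3, 13.2 and 7.42 FPKM in WT and at 6.35, 13.5 and 4.65 FPKM in null THY1+ uSPG. In KIT+ dSPG it stood at 14.1, 46.4 and 18.9 FPKM in WT and at 25.5, 74.5 and 38.8 FPKM in null mice. Replicate 2 was the highest KIT+ library in both genotypes, and the groups overlapped in both fractions. The log2 fold changes were -0.69 (95% interval -1.86 to 0.48) and 0.85 (-0.32 to 2.03), so that a change of more than 2-fold in either fraction lies within the error. Cyp26a1 made up 11.2% ± 6.04 of the summed Cyp26a1 and Cyp26b1 FPKM in WT KIT+ dSPG and 3.14% ± 1.95 in null KIT+ dSPG, and these ranges lay just apart (5.29% to 17.4% against 1.40% to 5.25%).

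Over both fractions of the Zbtb16 set, the groups of null and WT libraries did not overlap for 4 of the 9 genes in THY1+ uSPG (29.5% of all genes) and for 5 of the 9 in KIT+ dSPG (17.5%). Dhrs3, Aldh1a1, Aldh1a3 and Cyp26b1 had negative differences in the first fraction and positive ones in the second. The test of that change of difference (the interaction of genotype and fraction) called none of the 9 with limma (adjusted p 0.0906 to 0.502), where 7 genes in all were called (0.0313%). At an unadjusted p under 0.05 there were 6 of the 9, against 22.4% of all genes. The interaction was 1.46 ± 0.38 for Dhrs3, 1.26 ± 0.25 for Aldh1a1 and 1.62 ± 0.52 for Aldh1a3, and these 3 were called without null KIT+ replicate 1 (1.65, 1.40 and 1.98). With the replicate number as a block in the fit, 5 of the 9 were called: Dhrs3, Aldh1a1, Cyp26a1, Crabp1 and Aldh1a3. No label says what a replicate number marks. Lists of markers of 4 kinds of somatic cells changed sign between the fractions as well. The median log2 difference between null and WT was -0.73 and 0.60 for the 8 Leydig genes, -0.60 and 0.69 for 12 peritubular and stromal genes, -0.61 and 0.43 for 10 Sertoli genes and -0.58 and 0.67 for 8 endothelial genes, in THY1+ and KIT+ respectively, with no gene of these lists called. For 11 macrophage genes it was -0.76, with 1 called lower, and -0.01, for 9 T cell genes -0.40 and -0.30 with none called, and for 8 genes of all germ cells 0.32 and -0.23. The part of these markers in the differences of the pathway genes was not tested.

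**Figure D4:**
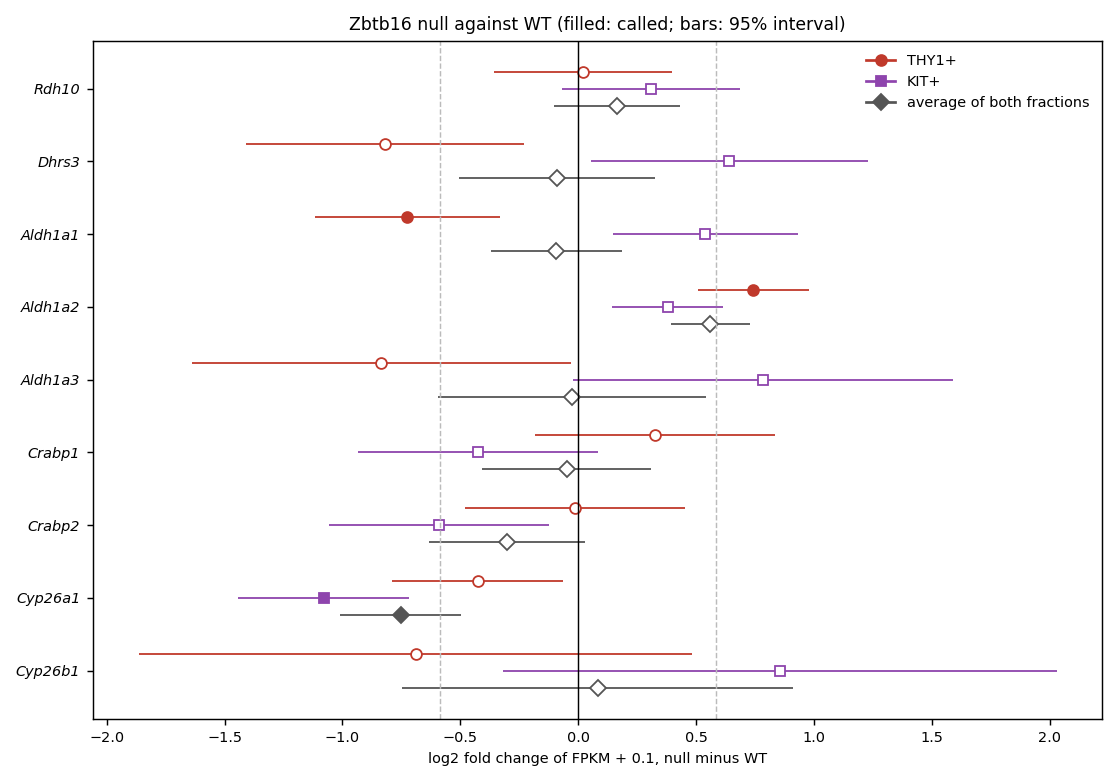
Log2 fold changes of the 9 genes in the null libraries against WT (circles, THY1+; squares, KIT+; diamonds, average of both fractions; bars, 95% intervals from limma; filled, called; dashed lines, 1.5-fold). Aldh1a1 (-0.73) and Aldh1a2 (0.74) are called in THY1+ uSPG and Cyp26a1 (-1.08) in KIT+ dSPG.

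The dependence on SOX3 was examined first in the averaged effect, in which 5 of the 9 genes were called (10.3% of 21212 genes). Of these 4 rose in cKO mice: Cyp26b1 (2.48-fold, log2 1.31 ± 0.28, adjusted p 0.00782), Aldh1a3 (0.82 ± 0.19, adjusted p 0.0123), Aldh1a1 (0.77 ± 0.20, adjusted p 0.0201) and Dhrs3 (0.63 ± 0.11, adjusted p 0.00362). Crabp1 fell by 0.90 ± 0.11 (1.87-fold, adjusted p 0.00162). Rdh10 (0.29 ± 0.08, adjusted p 0.0298) and Cyp26a1 (-0.49 ± 0.13, adjusted p 0.0202) passed the p threshold but stayed under 1.5-fold, and Aldh1a2 (-0.42 ± 0.16, adjusted p 0.0754) and Crabp2 (-0.56 ± 0.22, adjusted p 0.0813) passed neither. Dhrs3 dropped under 1.5-fold without WT labelled THY1+ replicate 2 or cKO KIT+ replicate 1 (0.57 and 0.58), and Aldh1a1 lost its call without WT labelled KIT+ replicate 1 or cKO THY1+ replicate 2 (0.67 to 0.69). Crabp2 became a call without WT labelled KIT+ replicate 2 (-0.74). With replicates 2 and 3 alone, and so fewer libraries in the fit, Cyp26b1 (1.48), Aldh1a3 (0.84) and Aldh1a1 (0.73) were not called.

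The values by library show which groups carry these differences. Crabp1 stood at 208, 239 and 225 FPKM in WT labelled THY1+, at 83.9, 67.2 and 58.1 FPKM in WT labelled KIT+, at 42.1, 42.2 and 46.0 FPKM in cKO THY1+ and at 85.2, 124 and 99.9 FPKM in cKO KIT+ libraries. The cKO libraries were lower than the WT libraries with like sorting markers, and those groups did not overlap. Cyp26b1 stood at 26.5, 13.7 and 34.4 FPKM in WT labelled THY1+, at 7.20, 9.30 and 9.63 FPKM in WT labelled KIT+, at 13.9, 38.0 and 13.8 FPKM in cKO THY1+ and at 52.7, 69.5 and 71.9 FPKM in cKO KIT+ libraries. The cKO KIT+ libraries exceeded all other libraries of the set. Dhrs3 was also highest in cKO KIT+ libraries, at 28.0, 20.8 and 24.2 FPKM, against 9.34 to 14.5 FPKM in the other 9 libraries. Aldh1a1 stood at 1188, 958 and 750 FPKM in cKO KIT+ libraries and at 495, 401 and 287 FPKM in WT labelled THY1+ libraries, with no overlap. In cKO THY1+ libraries it stood at 41.2, 58.4 and 37.0 FPKM and in WT labelled KIT+ libraries at 30.8, 57.7 and 30.7 FPKM, which overlapped. Aldh1a3 stood at 6.82, 3.88 and 4.89 FPKM in cKO KIT+ and at 2.77, 1.59 and 1.43 FPKM in WT labelled THY1+ libraries, with no overlap.

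The remaining genes moved less. Rdh10 stood at 5.85, 5.71 and 5.52 FPKM in cKO KIT+ libraries, above the 3.37 to 4.20 FPKM of the other 9 libraries. Cyp26a1 stood at 1.82, 1.57 and 2.29 FPKM in cKO KIT+ libraries, below all the other libraries of the set, the lowest of which were at 2.32 FPKM (cKO THY1+) and 2.63 FPKM (WT). Aldh1a2 stood at 5.33 to 14.5 FPKM over the set, with its highest library in WT labelled THY1+. Crabp2 stood at 1.97, 1.56 and 2.63 FPKM in WT labelled THY1+ libraries and at 0.910, 1.21 and 0.959 FPKM in cKO KIT+ libraries, with no overlap.

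The cKO libraries were also compared with the WT libraries that carry like sorting markers. In cKO THY1+ against WT labelled KIT+ libraries none of the 9 was called with limma, where 15 genes in all were (0.0707%), and 2 of the 9 had an unadjusted p under 0.05 (13.2% of all genes). These were Crabp1 (-0.67 ± 0.15, adjusted p 0.192) and Cyp26b1 (1.16 ± 0.39, adjusted p 0.291), and 3 of the 9 did not overlap (19.6%). In cKO KIT+ against WT labelled THY1+ libraries 6 of the 9 were called (17% of all genes) and 8 did not overlap (40%). Cyp26b1 (1.46 ± 0.39), Aldh1a3 (1.40 ± 0.27), Aldh1a1 (1.30 ± 0.29) and Dhrs3 (1.09 ± 0.15) rose, and Crabp1 (-1.14 ± 0.15) and Cyp26a1 (-0.69 ± 0.19) fell. Crabp2 was lower without overlap but just missed the call (-0.91 ± 0.31, adjusted p 0.0525). It became a call without WT labelled KIT+ replicate 2 or 3. Cyp26a1 lost its call without WT labelled THY1+ replicate 1 or 2 or cKO KIT+ replicate 1 or 2 (-0.67 to -0.57) and with a pseudocount of 1 (-0.51), and Cyp26b1 without WT labelled THY1+ replicate 2 or cKO KIT+ replicate 2 or 3 (1.08 to 1.40). Which fraction a WT library holds was taken from no source but its label, so the difference between these comparisons was not tested.

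Taken strictly by label, 5 of the 9 genes were called in cKO THY1+ against WT labelled THY1+ libraries (29.1% of all genes) and 4 did not overlap (50.5%). Aldh1a1 (-3.10 ± 0.29), Crabp1 (-2.36 ± 0.15), Crabp2 (-1.57 ± 0.31) and Aldh1a2 (-0.70 ± 0.23) were lower and Aldh1a3 (0.84 ± 0.27) was higher. The study names Cyp26b1 as bound by SOX3 and higher in Sox3-deficient THY1+ uSPG. By label Cyp26b1 stood here at -0.26 ± 0.39 (limma, adjusted p 0.633). Against WT labelled KIT+ libraries it stood at 1.16 ± 0.39 (adjusted p 0.291). Aldh1a2 was not called without WT labelled THY1+ replicate 2 or 3 or cKO THY1+ replicate 1 or 3 (-0.77 to -0.49), nor Aldh1a3 without WT labelled THY1+ replicate 2 or 3 or cKO THY1+ replicate 1 or 2 (0.66 to 0.86). In cKO KIT+ against WT labelled KIT+ libraries 6 were called (25.1%) and 7 did not overlap (46.5%), with Aldh1a1 (4.64 ± 0.29), Cyp26b1 (2.88 ± 0.39), Dhrs3 (1.35 ± 0.15), Aldh1a3 (0.80 ± 0.27) and Rdh10 (0.62 ± 0.12) higher and Cyp26a1 (-0.86 ± 0.19) lower. Rdh10 fell under 1.5-fold without WT labelled KIT+ replicate 2 (0.57) and with a pseudocount of 1 (0.52), and Aldh1a3 lost its call without any 1 of the WT labelled KIT+ libraries, cKO THY1+ replicate 1, or cKO KIT+ replicate 1 or 3 (0.59 to 0.91). These comparisons set libraries with opposite sorting markers against each other, so genotype and fraction cannot be told apart in them.

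**Figure D5:**
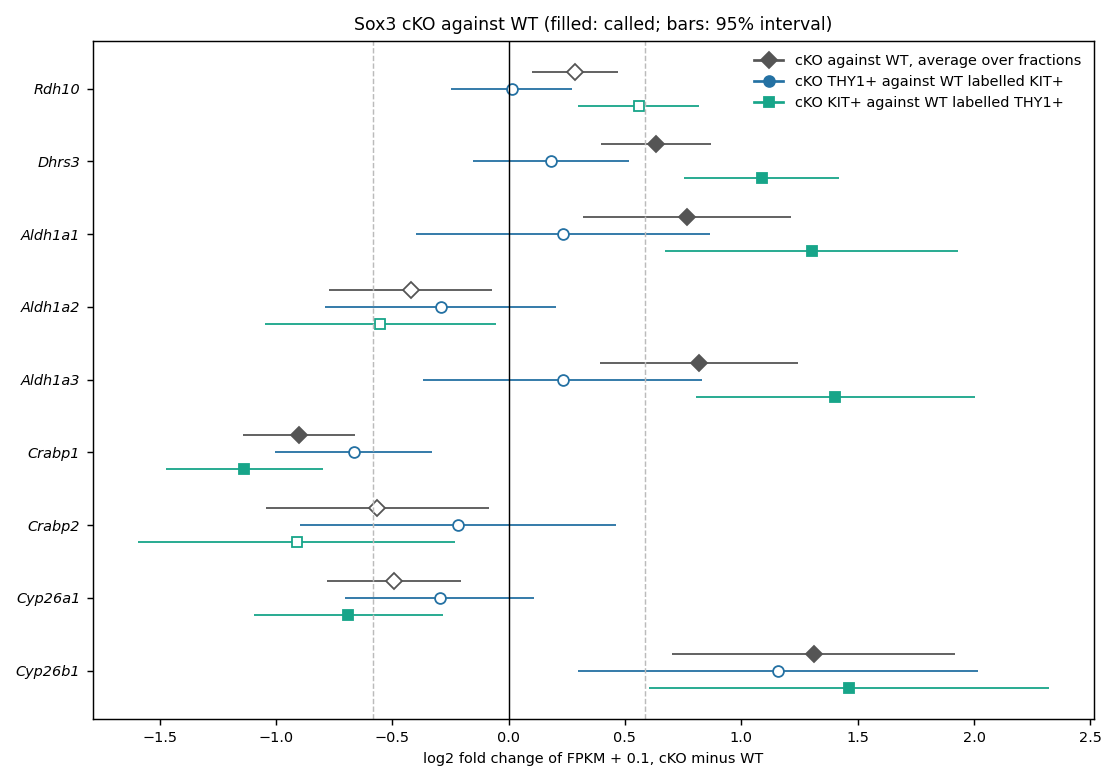
Log2 fold changes of the 9 genes in cKO against WT (diamonds, average over fractions; circles, cKO THY1+ against WT labelled KIT+; squares, cKO KIT+ against WT labelled THY1+; bars, 95% intervals from limma; filled, called; dashed lines, 1.5-fold). In the averaged effect Dhrs3 (0.63), Aldh1a1 (0.77), Aldh1a3 (0.82) and Cyp26b1 (1.31) are called higher and Crabp1 (-0.90) lower in cKO mice.

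Markers of 4 kinds of somatic cells were higher on average in cKO libraries too. In the averaged effect 5 of 8 Leydig genes (median 0.78), 4 of 9 Sertoli genes (0.62), 3 of 12 peritubular and stromal genes (0.47) and 2 of 8 endothelial genes (0.52) were called higher. The Leydig sum was 2720 to 5324 FPKM in cKO KIT+ and 1367 to 2184 FPKM in WT labelled THY1+. It overlapped between cKO THY1+ (105 to 135) and WT labelled KIT+ (87.5 to 137). So did the sums of macrophage (1099 to 1232 and 1052 to 1370) and T cell markers (27.3 to 29.7 and 26.4 to 31.5). In cKO KIT+ against WT labelled THY1+ the macrophage sum was 8.68 to 9.33 against 7.14 to 7.65. The T cell sum was 6.54 to 9.80 against 7.17 to 8.73. Of 8 genes of all germ cells 2 were called lower, and all 8 had a negative difference (median -0.38). The median of all genes was 0.02. The summed level of the germ cell genes was 1377 to 1557 FPKM in WT and 837 to 1288 FPKM in cKO libraries. The part of this shift in the higher Dhrs3, Aldh1a1, Aldh1a3 and Cyp26b1 and the lower Crabp1 was not tested.

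The comparisons of null and cKO mice share no libraries. Cyp26a1 had a negative averaged difference in both sets (-0.75 in null, called, and -0.49 in cKO, under 1.5-fold). Aldh1a2 had a difference of 0.56 in null and -0.42 in cKO mice. Crabp1 fell in cKO mice (-0.90), while its averaged difference in null mice was -0.05 (95% interval -0.41 to 0.31). The difference between the sets was not tested, since the tables were made separately.

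Other genes of the pathway were taken from 5 lists with 38 genes in all. Among genes of retinoid uptake and storage, 1 of 5 tested rose in null THY1+ uSPG and none fell. Bco1, which cleaves carotene to retinaldehyde, was at 0.163 to 0.209 FPKM in WT and 0.438 to 0.586 FPKM in null libraries (log2 1.16, adjusted p 0.00767). None of 9 other retinol and retinaldehyde enzymes was called, and 1 of 2 in the list of another carrier and hydroxylase fell: Cyp26c1, another CYP26 enzyme, was at 0.551 to 0.694 FPKM in WT and 0.166 to 0.281 FPKM in null libraries (-1.21, adjusted p 0.0176).

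The largest difference in these lists was that of Rxrg, a retinoid X receptor. It was at 0.390 to 0.792 FPKM in WT and at 6.12 to 7.89 FPKM in null THY1+ uSPG, which is 3.26 higher on the log2 scale. In KIT+ dSPG it was at 0.198 to 0.251 FPKM in WT and 0.923 to 1.43 FPKM in null mice (1.95, adjusted p 0.00710). It was the 1 receptor of 6 called in either fraction, and the 1 gene of all 5 lists called in KIT+ dSPG. In the averaged effect Rxrg (2.61) and Bco1 (0.88) rose, and Cyp26c1 (-1.04) and the receptor gene Rarb (-0.59, adjusted p 0.0224) fell. None of the 5 retinoic acid responsive genes tested was called in the Zbtb16 set between genotypes. In KIT+ dSPG the summed level of the 6 genes on that list was lower in null mice, without overlap. It was 107 to 142 FPKM in WT and 67.6 to 84.0 FPKM in null libraries. Taken singly, 17.5% of all genes did not overlap there, and a sum is weighted towards its highest genes. In THY1+ uSPG the summed level was 58.9 to 77.0 FPKM in WT and 51.9 to 68.4 FPKM in null libraries, with an overlap. No test was made on these sums.

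In the Sox3 set the averaged effect called 2 responsive genes higher and 1 lower of 5. Stra8, a gene induced by retinoic acid that is needed for meiosis, was at 123 to 150 FPKM in WT labelled THY1+, 55.5 to 69.1 FPKM in WT labelled KIT+, 44.1 to 50.5 FPKM in cKO THY1+ and 45.0 to 65.2 FPKM in cKO KIT+ libraries, and it fell by 0.88 on the log2 scale (adjusted p 0.00162). Nrip1, a nuclear receptor co-repressor (0.73, adjusted p 0.00301), and Tgm2, a transglutaminase (0.62, adjusted p 0.0397), rose. Rbp4, the carrier of retinol in blood, fell by 0.70 (adjusted p 0.00565) as 1 of 5 uptake genes, and Rxrg fell by 0.86 (adjusted p 0.0473) as 1 of 6 receptors, at no more than 1.12 FPKM. None of 8 other enzymes was called.

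Genes with a profile over the 8 group means like that of a member were sought among 15870 genes, by the root mean square difference of log2 values centred within each table. The nearest were Gas6 (0.0619), Hoxd10 (0.0832) and Agpat3 (0.0961) for Dhrs3, and Oxtr (0.0929), Folr1 (0.113) and Itih2 (0.144) for Aldh1a1. For Cyp26b1 they were Osr2 (0.144), Gm21698 (0.147) and Pkdcc (0.148), and for Crabp1 they were 1700013H16Rik (0.0895), Hist1h2ba (0.121) and Rbp4 (0.128). For Aldh1a3 they were Pon2 (0.0829), Cflar (0.0877) and Tnfrsf1a (0.0928), and for Crabp2 they were Tmem56 (0.0798), Tc2n (0.0798) and Mlf1 (0.0811). With a pseudocount of 1 in place of 0.1, 2 of 3 stayed for Dhrs3, Crabp1 and Cyp26b1 and none for Aldh1a1, while Aldh1a3 and Crabp2 then varied too little between groups to be given neighbours. Rdh10, Aldh1a2 and Cyp26a1 did so with either pseudocount.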

How the data were processed

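RNA of sorted spermatogonia was sequenced as stranded, ribosome-depleted single reads in 24 libraries. The authors aligned the reads to mm10 with Novoalign and deposited FPKM values computed with USeq against Ensembl annotation, in 1 table per set. The strand used in counting is not given in the sources used here, so values of overlapping genes are uncertain. How reads that align to several places were counted is not given either, which leaves values of close paralogs uncertain. Here log2(FPKM + 0.1) of genes with a mean of at least 0.1 FPKM over the 12 libraries of a table (22374 and 21212 genes) was fitted in limma 3.58.1 (R 4.3.3, trend and robust settings) with 4 group means per table. Two-sided p-values were adjusted by Benjamini-Hochberg over all genes in each comparison, of which there were 13, and a gene was called where the adjusted p did not exceed 0.05 and the fold was 1.5 or more. The deposited FPKM on the log2 scale with the added 0.1 understate changes of low genes. Groups were taken from the labels alone.

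Reads were estimated from FPKM steps and exon lengths of GRCm38 annotation (81.7% to 85.9% of low values came out whole within 0.05 reads), and they bound counting error only. Python 3.11.15, pandas 2.3.3, numpy 2.4.6 and matplotlib 3.10.9 were used. The 9 genes, the 14 lists (124 genes) and the tests were chosen with earlier results of these data known. Other genes first put on the pathway lists are not reported here. Named besides the 9 genes are list genes of the pathway called between genotypes, the mutated genes, the sorting markers and a few cell-type markers. The 3 nearest profiles are named for each gene whose group means, of at least 1 FPKM on average, span at least 1 on the log2 scale in both tables. The fit was checked on simulated data. Alternatives were other pseudocounts, filters, scaling, fit settings, a replicate block and leaving out libraries.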

Additional observations from a re-analysis of the deposited data

How the results depend on the processing

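Single-gene results were followed where they were called, reached 1.5-fold or became a call under an alternative, which gave 70. For these, no alternative turned a direction, and smaller differences were not followed. A pseudocount of 0.01 and no filter on low values changed no call. A pseudocount of 1 left 0 of the 9 genes called in the averaged effect of the Zbtb16 set in place of 1 (Cyp26a1, -0.52), and it also put under 1.5-fold the calls of Cyp26a1 between null fractions (-0.41) and in cKO KIT+ against WT labelled THY1+ (-0.51), and of Rdh10 between cKO fractions (0.51) and in cKO KIT+ against WT labelled KIT+ (0.52). Fitting only the groups compared left 1 gene called in null against WT THY1+ uSPG in place of 2 (Aldh1a1, adjusted p 0.0724) and 0 in KIT+ dSPG in place of 1 (Cyp26a1, adjusted p 0.287), and ended the calls of Aldh1a3 in cKO THY1+ against WT labelled THY1+ (adjusted p 0.0553) and of Cyp26a1 in cKO KIT+ against WT labelled THY1+ (adjusted p 0.0605). Dropping the trend and robust settings also left 1 in THY1+ uSPG (Aldh1a1, adjusted p 0.0515). Crabp2 in cKO KIT+ against WT labelled THY1+ became a call without those settings (adjusted p 0.0492). It did so too with only the groups compared (0.0471) and with a filter of at least 1 FPKM (0.0490). With median-of-ratios scaling of the libraries, Crabp1 became a call in cKO KIT+ against WT labelled KIT+ (0.59). With the shallower replicates 2 and 3 of the Sox3 table alone, 2 genes in place of 5 were called in the averaged effect. The calls lost there were those of Cyp26b1 (adjusted p 0.0614), Aldh1a1 (0.111) and Aldh1a3 (0.0548). Between the cKO fractions 3 in place of 5 were called, and between the labelled WT fractions 2 in place of 4. In cKO KIT+ against WT labelled THY1+ it was 3 in place of 6. These fits hold fewer libraries.

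Same-numbered libraries deviated together in 16 of 18 pairs of the Zbtb16 table and 12 of 18 of the Sox3 table (correlation over 0.1, mean 0.326 and 0.147), and 11 and 9 of the 12 libraries of a table correlated best with their own number. Libraries of different numbers had a mean correlation of -0.164 and -0.0728. The numbers were not taken as pairs, since some same-numbered pairs were not over 0.1 and no label says what a number marks. With the replicate number as a block, 5 of the 9 genes in place of 0 were called in the interaction of the Zbtb16 set: Dhrs3 (adjusted p 0.0156), Aldh1a1 (0.0207), Cyp26a1 (0.0247), Crabp1 (0.0397) and Aldh1a3 (0.0467). Dhrs3 then also fell in null THY1+ uSPG (adjusted p 0.0120) and Crabp2 in cKO KIT+ against WT labelled THY1+ (0.0349), and the block changed no other call.

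Leaving out each library in turn gave the following counts of the 9 genes called. In the Zbtb16 set they were 1 to 3 for null against WT in THY1+, 0 to 1 in KIT+, 3 to 4 between WT fractions, 4 to 6 between null fractions, 0 to 3 for the interaction and 1 to 2 for the averaged effect. In the Sox3 set they were 4 to 6 for the averaged effect, 5 to 6 between cKO fractions, 3 to 4 between labelled WT fractions, 3 to 5 for cKO THY1+ against WT labelled THY1+, 4 to 6 for cKO KIT+ against WT labelled KIT+, 0 throughout for cKO THY1+ against WT labelled KIT+ and 4 to 7 for cKO KIT+ against WT labelled THY1+. Low depth limits Crabp2 most, with 7 reads in its lowest library. The cause of these changes was not tested.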
